A study of Mus musculus with 12 samples.

Results

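The genes described here were the 9 rows of the table for ABL and SRC family tyrosine kinases and their regulator: Abl1, Abl2, Src, Fyn, Yes1, Lyn, Lck, Fgr and Csk. They were picked by name as kinases that the drug dasatinib inhibits, with earlier results of these data known. All 9 were found among the 24340 rows of the table, and all 9 were among the 18509 genes above 0 in at least 1 library. The study asked whether removing senescent cells early protects the retina from a rise in intraocular pressure (IOP). It turned to dasatinib, a leukemia drug that inhibits ABL and SRC family kinases and is also used as a senolytic, after its RNA-seq of these retinas pointed to the ABL1 pathway. No library came from a retina treated with dasatinib.

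The 12 libraries were made from whole retinas of 6 p16-3MR mice of 12 to 16 weeks. All of them carry the 3MR transgene, a fusion of Renilla luciferase, a red fluorescent protein and herpes simplex virus thymidine kinase placed under the p16 regulatory region. Ganciclovir (GCV) is turned into a toxin by the viral kinase and kills cells that express the transgene. One eye of each mouse was held at 85 to 90 mm Hg for 60 min, the opposite eye was the control, and both retinas were taken at day 3. Mice 1, 2 and 5 received GCV at 25 mg/kg a day by intraperitoneal injection, and mice 3, 4 and 6 were sham-treated with PBS. This gave 4 groups of 3 retinas: control, IOP, control with GCV and IOP with GCV. No group without the transgene and no group with GCV but without p16-3MR was analysed here.

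ABL and SRC family kinases are non-receptor tyrosine kinases built around SH3, SH2 and kinase domains, and in both families the resting kinase is held shut by contacts within the protein. Csk phosphorylates the tail tyrosine of SRC family kinases and so keeps them inactive. Src, Fyn and Yes1 are made by most cells, and Src and Fyn are abundant in neurons. Lyn and Fgr belong mainly to myeloid cells, where they act below integrins and immune receptors that signal through tyrosine motifs (ITAM), and Lck is the SRC family kinase of T cells. Activity of these kinases is set by phosphorylation, so a transcript level is a measure of message only.

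Values are FPKM, fragments per kilobase of transcript, scaled to the size of the library, and are compared between genes on that per-length scale. The depth was estimated from the smallest steps in the values at 3990000 to 9050000 fragments per library, lowest in the IOP retina of mouse 6. Rod markers (Gnat1, Pde6b, Sag and Nrl) summed to 16010 to 26580 FPKM in the 12 libraries, which fits the label of retina. Markers of the lens (Cryaa, Cryba1, Mip, Lim2 and Bfsp1) summed to 2.41 to 20.4 FPKM in control and 47.2 to 2748 FPKM in IOP retinas without GCV. With GCV the sums were 34.5 to 4956 FPKM in control and 1859 to 3548 FPKM in IOP retinas. The lens sum was higher in the IOP-treated retina of 5 of 6 mice, and the part of lens material in the kinase values was not tested. As the tissue is bulk, fewer cells of a type and less RNA per cell cannot be told apart.

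In control retinas without GCV, Csk had the highest level of the 9 kinases at 19.4 ± 1.31 FPKM (SD, n = 3), apart from every other member. Yes1 followed at 12.6 ± 0.726 FPKM, Fyn at 12.1 ± 2.03, Abl1 at 9.67 ± 0.548, Src at 7.79 ± 1.44 and Abl2 at 6.11 ± 0.615. The ranges of neighbours in this order overlapped from Yes1 down to Abl2. Below a gap came Lyn at 0.674 ± 0.533 FPKM, Lck at 0.521 ± 0.198 and Fgr at 0.219 ± 0.154, again with overlapping ranges between neighbours. Set against all genes tested, the control level of Csk lay above 78.3% of genes, that of Abl2 above 54.6%, and that of Fgr above 20.5%.

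The order differed in IOP-treated retinas at its low end and, with GCV, also between Fyn and Yes1. In IOP retinas without GCV, Fgr at 4.18 ± 2.72 FPKM (n = 3) and Lyn at 3.48 ± 0.714 had ranges that joined those of the more abundant kinases, and Lck at 0.752 ± 0.448 was left alone at the bottom. With GCV and IOP, the means of Fgr (6.95 ± 8.80 FPKM) and Lyn (5.92 ± 5.25) stood above that of Abl2 (5.06 ± 0.663), although the ranges overlapped. That order rested on mouse 5: without its IOP-treated retina the means were 1.88 FPKM for Fgr and 3.02 for Lyn, both under 4.78 for Abl2. Control retinas with GCV had the same split as those without, with Csk at 20.1 ± 3.57 FPKM, Fyn at 16.0 ± 2.25 and Fgr at 0.102 ± 0.0730 at the bottom. There Fyn stood above Yes1 (11.4 ± 2.03 FPKM). In IOP retinas with GCV, Yes1 (14.6 ± 1.67 FPKM) stood above Fyn (10.1 ± 1.74), and the ranges were apart in each of these groups.

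**Figure D1:**
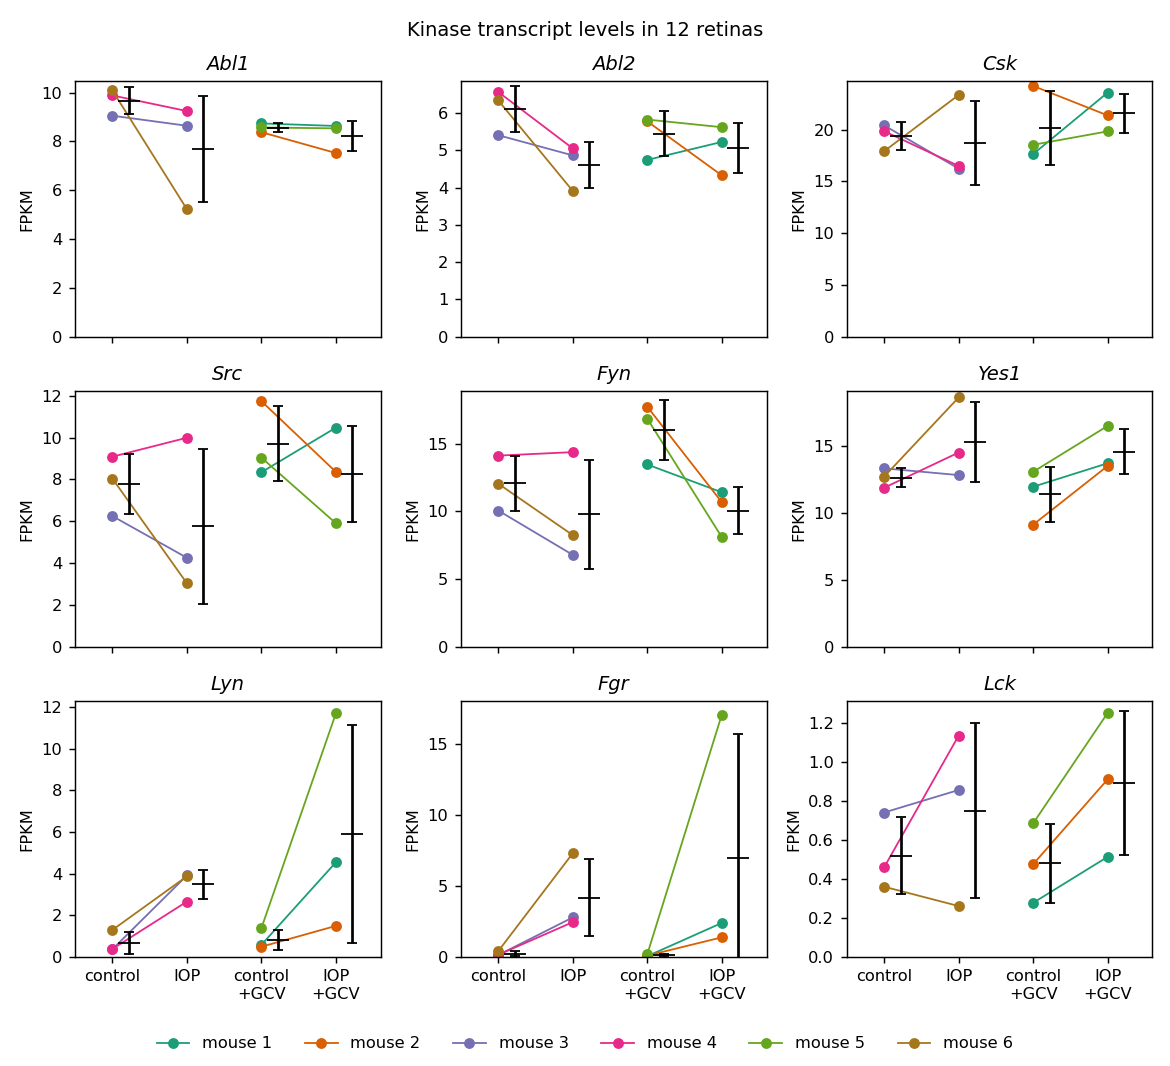
Levels of the 9 kinases in FPKM (linear axes from 0) in the 12 retinas, with a line joining the 2 retinas of each mouse and black bars for the mean and SD of each group of 3, cut at 0 for Fgr. Lyn and Fgr are the panels in which all 6 IOP-treated retinas lie above all 6 control retinas, and mouse 5 has the highest values of both. The share of all genes with such a separation is not given here.

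Effects of IOP were tested with limma on log2(FPKM + 1) over all 18509 genes, with an adjusted p under 0.05 as the threshold for a call. In mice without GCV none of the 9 kinases was called by limma, where 1.65% of all genes tested were, and 3 members (Abl2, Fgr and Lyn) had an unadjusted p under 0.05, as did 18.9% of all genes. In mice with GCV again 0 of 9 were called by limma, against 1.8% of all genes, and 3 members (Fgr, Fyn and Lyn) had an unadjusted p under 0.05, against 19.2%. The IOP effect averaged over both treatments used all 12 libraries, without pairing the 2 retinas of a mouse. In it, Fgr and Lyn rose and the other 7 were not called. The 2 of 9 compare with 12.2% of all genes called in either direction and 6.76% called higher. The median log2 difference of the 9 members was 0.02, beside 0.01 for all genes.

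Fgr, a myeloid SRC family kinase encoded at chr4:132974095-133001893 (GRCm38.p6), showed the widest difference between eyes. It measured 0.121, 0.138 and 0.397 FPKM in the control retinas of mice 3, 4 and 6 and 2.78, 2.45 and 7.31 FPKM in their IOP-treated retinas. With GCV it measured 0.0417, 0.0817 and 0.183 FPKM in the control retinas of mice 1, 2 and 5 and 2.39, 1.37 and 17.1 FPKM in the IOP-treated ones. Every IOP-treated retina lay above every control retina, and mouse 5 gave the highest value. The share of all genes that separate in this way is not given here, so this and the overlaps named below are descriptions. The control values are close to the detection limit, resting on about 18 fragments in the 3 libraries without GCV and about 7 in the 3 with GCV, against 231 and 569 after IOP. The mean FPKM was 19.1 times higher in IOP than in control retinas without GCV, and 68.0 times higher with GCV. Single libraries moved these ratios: without GCV it was 11.9 times without the IOP retina of mouse 6 and 32.2 times without its control retina, and with GCV it was 18.4 times without the IOP retina of mouse 5 and 113 times without its control retina. On the log2(FPKM + 1) scale, which understates the change of a gene this low, the averaged difference was 2.12 (SE 0.44, limma adjusted p = 0.0174). The 6 mice ranged from 1.13 to 3.93 with a median of 1.73.

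Lyn, the other myeloid member called, lies at chr4:3678068-3791612 and in macrophages and B cells both starts receptor signals and feeds inhibitory receptors. Without GCV it measured 0.359, 0.374 and 1.29 FPKM in the control retinas of mice 3, 4 and 6 and 3.91, 2.65 and 3.87 FPKM in their IOP-treated retinas. With GCV it measured 0.575, 0.483 and 1.38 FPKM in the control retinas of mice 1, 2 and 5 and 4.55, 1.49 and 11.7 FPKM after IOP. The 6 control and 6 IOP-treated retinas did not overlap, with mouse 2 the nearest to the controls and mouse 5 the farthest. Lyn rose by 1.56 on the log2 scale on average over both treatments (SE 0.35, limma adjusted p = 0.0224). The means differed by 5.16 times without GCV and by 7.27 times with GCV. Without the control retina of mouse 6 the first ratio was 9.49, and the second was 3.71 without the IOP retina of mouse 5 and 11.2 without its control retina, so no order of the treatments is read from them.

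Both calls depended on single libraries. Fgr missed the threshold without the control retina of mouse 3 (limma adjusted p = 0.0505) or of mouse 4 (0.0555), and without both retinas of mouse 6 (0.0713). Lyn missed it without the control retina of mouse 1, 2, 3 or 4, without the IOP retina of mouse 3, or without both retinas of mouse 6, with limma adjusted p of 0.0549 to 0.0684. In each of these fits the log2 difference stayed near its value in all libraries, at 1.97 to 2.09 for Fgr and 1.49 to 1.65 for Lyn. Without both retinas of mouse 5, whose IOP-treated retina was the highest for both genes, the difference was 1.70 for Fgr (adjusted p = 0.0118) and 1.37 for Lyn (adjusted p = 0.0296). With a pseudocount of 0.1 in place of 1, the differences were 4.01 for Fgr and 2.40 for Lyn.

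**Figure D2:**
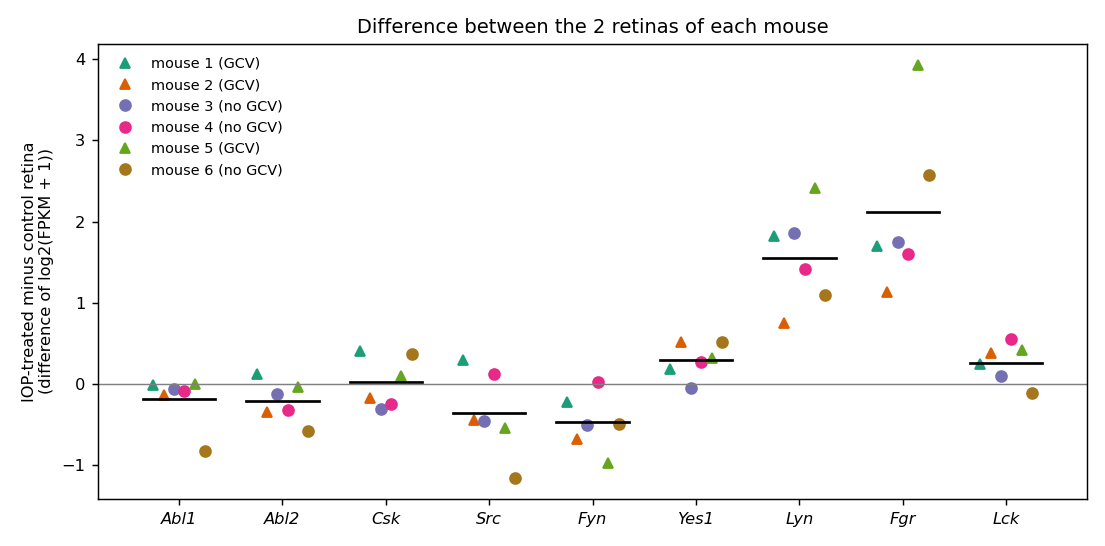
Difference between the IOP-treated and the control retina of each of the 6 mice, in log2(FPKM + 1), for the 9 kinases, with circles for mice without GCV, triangles for mice with GCV and a black line at the mean. Fgr and Lyn are above 0 in 6 of 6 mice and Abl1 is below 0 in 6 of 6, by at most 0.14 outside mouse 6.

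Markers of microglia and macrophages moved with Lyn and Fgr. The sum of 9 such markers (Csf1r, Cx3cr1, P2ry12, Tmem119, Aif1, C1qa, C1qb, Cd68 and Laptm5) was 44.2 to 79.5 FPKM in control retinas and 259.8 to 690.9 FPKM in IOP retinas. With GCV the sum was 52.5 to 62.0 FPKM in control and 218 to 694 FPKM in IOP retinas. It was higher in the IOP-treated retina in 6 of 6 mice, and 7 of the 9 markers rose in the averaged comparison, in which 6.76% of all genes were called higher. The median log2 difference was 2.18 over the list and 0.01 over all genes.

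Lyn was 0.760 to 1.62% of this marker sum in control retinas and 0.560 to 1.02% in IOP retinas without GCV, ranges that overlap. With GCV it was 0.834 to 2.23% in control and 0.681 to 1.69% in IOP retinas. Fgr was 0.275 to 0.499% of the sum in control retinas and 0.643 to 1.06% in IOP retinas without GCV, with no overlap. With GCV the Fgr share was 0.0795 to 0.296% in control and 0.539 to 2.46% in IOP retinas, again apart. These shares are descriptions with few fragments behind the Fgr control values, and the part of microglial number in either result was not tested.

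**Figure D3:**
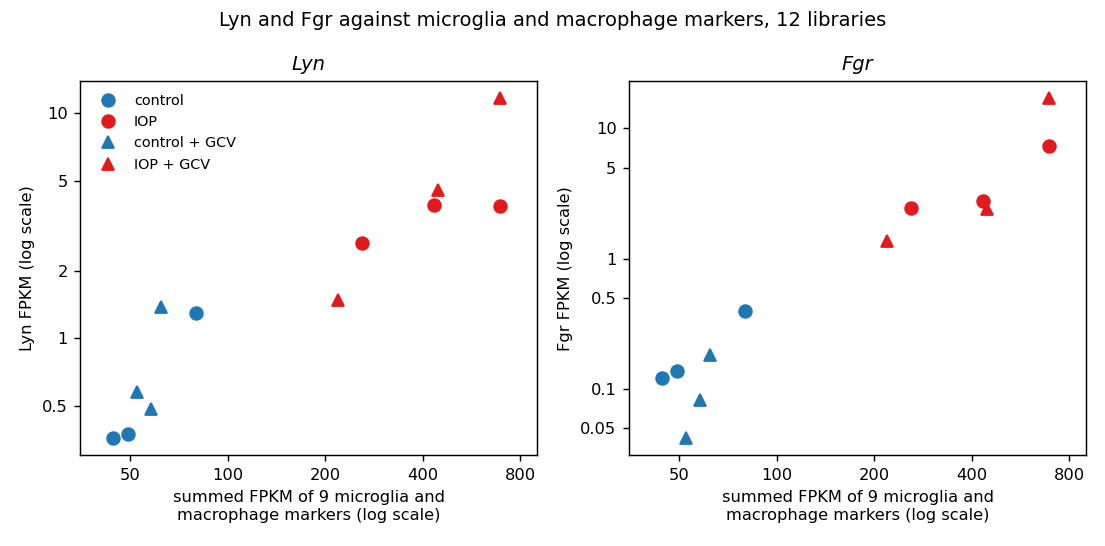
Lyn (left) and Fgr (right) in FPKM against the summed FPKM of 9 microglia and macrophage markers in the 12 libraries, log scales on all axes, blue for control and red for IOP-treated retinas, circles without and triangles with GCV. IOP-treated retinas lie to the upper right of the control retinas in both panels, and mouse 5 with GCV is at the top of each.

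The sum of 7 neutrophil markers moved in the same libraries. It was 0.970 to 16.9 FPKM in the 6 control retinas and 14.3 to 381 FPKM in the 6 IOP-treated ones. Its highest value was in the IOP retina of mouse 5, which also held the most Fgr and Lyn. Most of the sum was S100a8 and S100a9, which averaged 106.4 and 43.25 FPKM of 152.8 in IOP retinas with GCV. Ngp, Camp and Elane averaged 0.0972, 0.912 and 0.0507 FPKM there. Of the 6 neutrophil markers that could be tested, S100a8 and S100a9 rose in the averaged comparison and the other 4 were not called, beside 6.76% of all genes called higher. The granule gene Mpo was at 0 in all 12 libraries. Against the same 6.76%, 1 of 3 B cell markers, Cd79b, rose, and Cd79a had a mean of 0.0521 FPKM over the 6 IOP-treated retinas. The part of these cells in the Fgr and Lyn results was not tested.

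Lck, the T cell member at chr4:129548344-129573641, was low throughout. It measured 0.742, 0.460 and 0.360 FPKM in the control retinas of mice 3, 4 and 6 and 0.858, 1.14 and 0.261 FPKM after IOP. In mice with GCV it was 0.278, 0.476 and 0.687 FPKM in the control retinas of mice 1, 2 and 5 and 0.514, 0.913 and 1.25 FPKM after IOP. It was higher in the IOP-treated retina of 5 of 6 mice, but the groups overlapped and the averaged difference of 0.26 (SE 0.15) was not called (limma adjusted p = 0.274). The 12 values rest on about 2 to 21 fragments each. The 7 T cell markers summed to 0.0375 to 0.639 FPKM in the 6 control retinas and 0.532 to 1.90 FPKM in the 6 IOP-treated ones. None of the 7 was called in the averaged comparison, in which 12.2% of all genes were called. The part of T cell number in the Lck values was not tested.

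Fyn, a neuronal and T cell kinase at chr10:39369743-39565381, went the other way in most mice without passing the test. It measured 10.1, 14.1 and 12.0 FPKM in the control retinas of mice 3, 4 and 6 and 6.78, 14.4 and 8.24 FPKM in their IOP-treated retinas. With GCV it measured 13.5, 17.7 and 16.8 FPKM in the control retinas of mice 1, 2 and 5 and 11.4, 10.7 and 8.09 FPKM after IOP. The GCV mice showed no overlap between eyes, while mouse 4, the exception among those without GCV, had about equal values in its eyes. The averaged difference was -0.48 (SE 0.17, limma adjusted p = 0.0919). Without the IOP retina of mouse 4 it was -0.62 and called (adjusted p = 0.00891).

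Src, the founding member of its family at chr2:157423906-157471838, ranged widely between mice. It measured 6.25, 9.09 and 8.04 FPKM in the control retinas of mice 3, 4 and 6 and 4.25, 9.99 and 3.03 FPKM after IOP. In mice 1, 2 and 5 with GCV the values were 8.35, 11.7 and 9.04 FPKM in control and 10.5, 8.36 and 5.90 FPKM in IOP-treated retinas. The eyes overlapped in both treatments, with Src lower in 4 of 6 mice and higher in mice 1 and 4, and the averaged difference of -0.37 (SE 0.24) was not called (limma adjusted p = 0.342). Without the IOP retina of mouse 4 it was -0.58 and called (adjusted p = 0.0351), and without that of mouse 6 it was -0.21 (adjusted p = 0.541).

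Markers of retinal ganglion cells differed in the same libraries. The 6 markers (Rbpms, Pou4f1, Slc17a6, Sncg, Nefl and Thy1) summed to 807 to 1626 FPKM in the 6 control retinas and 196 to 890 FPKM in the 6 IOP-treated ones, lower in 6 of 6 mice. Of the 6 markers 5 fell in the averaged comparison, in which 5.44% of all genes were called lower. Mouse 4, in which Fyn and Src were not lower after IOP, had the smallest gap in this sum, 919 FPKM in its control and 890 FPKM in its IOP retina. In mouse 1, Src was higher after IOP while the sum was 1020 FPKM in the control and 652 FPKM in the IOP retina. The part of ganglion cell loss in the Fyn and Src values was not tested.

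Yes1, a broadly made kinase at chr5:32611171-32687066, was the abundant member with higher values after IOP. It measured 13.3, 11.9 and 12.7 FPKM in the control retinas of mice 3, 4 and 6 and 12.8, 14.5 and 18.6 FPKM after IOP. With GCV it measured 11.9, 9.11 and 13.1 FPKM in the control retinas of mice 1, 2 and 5 and 13.7, 13.5 and 16.5 FPKM after IOP. The difference was above 0 in 5 of 6 mice, and with GCV the eyes did not overlap. On average it was 0.29 (SE 0.11) and was not called (limma adjusted p = 0.112).

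The balance of Fyn and Yes1 is given as a description, since the pair was chosen after the values were seen. The ratio of Fyn to Yes1 was 0.756, 1.19 and 0.949 in the control retinas of mice 3, 4 and 6 and 0.529, 0.991 and 0.443 in their IOP-treated retinas. With GCV it was 1.13, 1.95 and 1.29 in the control retinas of mice 1, 2 and 5 and 0.833, 0.790 and 0.491 after IOP. The ratio was lower after IOP in 6 of 6 mice, by 0.26 to 1.39 on the log2 scale. Its mean change was -0.83 ± 0.49 (SD, n = 6), with -0.63 in the mice without GCV and -1.04 in those with it. Whether the treatments differ in this change was not tested.

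**Figure D4:**
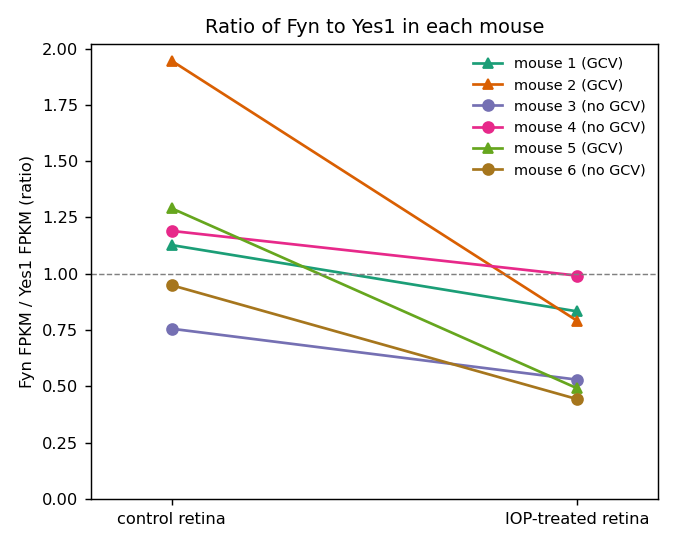
Ratio of Fyn to Yes1 FPKM in the control and the IOP-treated retina of each mouse, circles without and triangles with GCV, with a dashed line at equal levels. All 6 lines slope down, and all 6 IOP-treated retinas are under 1.

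Summed over the 6 SRC family members (Src, Fyn, Yes1, Lyn, Lck and Fgr), transcripts came to 33.9 ± 2.71 FPKM in control retinas (n = 3) and 39.3 ± 7.08 FPKM in IOP retinas. With GCV the sum was 38.5 ± 3.42 FPKM in control and 46.6 ± 12.5 FPKM in IOP retinas. The makeup of that sum differed between the eyes. Lyn, Lck and Fgr together supplied 2.70 to 5.87% of it in control retinas and 13.8 to 27.7% in IOP retinas, and with GCV 2.58 to 5.47% in control and 10.4 to 49.7% in IOP retinas. The Fyn share was 32.6 to 39.2% in control and 19.9 to 31.9% in IOP retinas, and 38.9 to 44.7% against 13.4 to 29.4% with GCV. The Src and Yes1 shares overlapped between eyes in both treatments. A share also falls when other members of the sum rise. In mouse 4 the Fyn share was 39.2% in the control and 31.9% in the IOP retina, while Fyn itself was 14.1 and 14.4 FPKM.

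**Figure D5:**
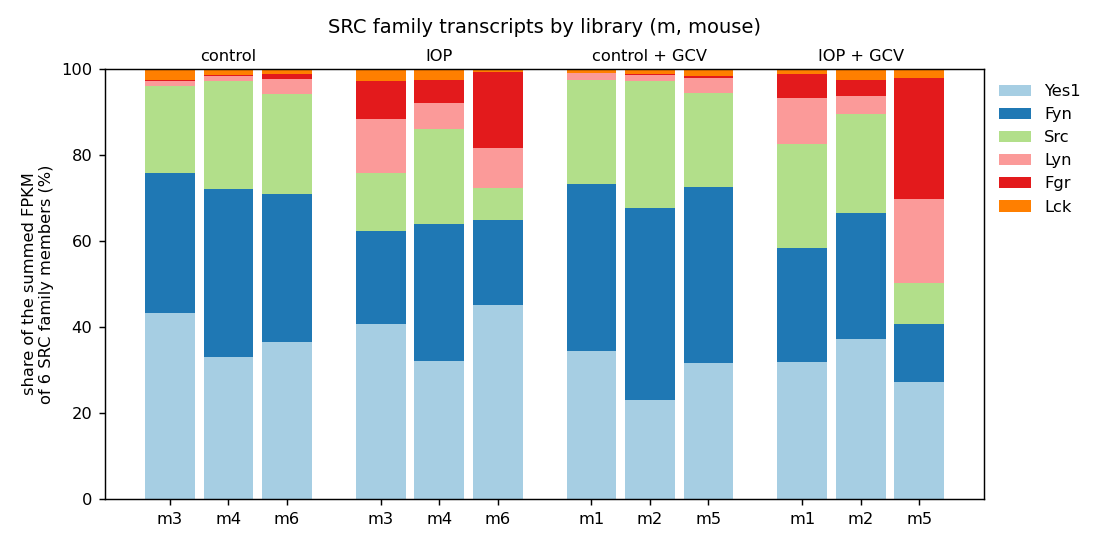
Share of each of 6 SRC family members in their summed FPKM (percent, stacked bars from 0) for the 12 libraries, by group and mouse. The pooled share of Lyn, Fgr and Lck is at most 5.87% in control retinas and at least 10.4% in IOP-treated ones, and reaches 49.7% in mouse 5 with GCV.

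Abl1, the cellular form of the kinase in the BCR-ABL fusion, lies at chr2:31688244-31807093. It measured 9.05, 9.88 and 10.1 FPKM in the control retinas of mice 3, 4 and 6 and 8.64, 9.24 and 5.22 FPKM in their IOP-treated retinas. With GCV it measured 8.73, 8.37 and 8.57 FPKM in the control retinas of mice 1, 2 and 5 and 8.63, 7.52 and 8.53 FPKM after IOP. It was lower after IOP in 6 of 6 mice, by a median of 0.07 on the log2 scale, with the IOP retina of mouse 6 well under the rest. Without GCV the log2 difference was -0.33 (SE 0.17, limma adjusted p = 0.323), and without the IOP retina of mouse 6, the shallowest library, it was -0.10 (adjusted p = 0.641). With GCV the log2 difference was -0.05 (limma adjusted p = 0.933).

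Abl2, the paralog of Abl1 known for its role at the actin cytoskeleton, lies at chr1:156558590-156649619. Its levels were 5.41, 6.57 and 6.34 FPKM in the control retinas of mice 3, 4 and 6 and 4.87, 5.05 and 3.91 FPKM after IOP, with no overlap. In mice 1, 2 and 5 with GCV they were 4.75, 5.78 and 5.83 FPKM in control and 5.23, 4.33 and 5.62 FPKM in IOP-treated retinas, which overlapped. The log2 difference was -0.34 (SE 0.15, limma adjusted p = 0.257) without GCV and -0.09 (adjusted p = 0.818) with it. The value with GCV moved to -0.0018 without the IOP retina of mouse 2 and to -0.17 without the control retina of mouse 1. The ratio of Abl1 to Abl2 FPKM held between 1.33 and 1.84 in all 12 libraries.

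Csk, the inhibitory kinase at chr9:57626646-57653631, showed no common direction. It measured 20.4, 19.9 and 17.9 FPKM in the control retinas of mice 3, 4 and 6 and 16.2, 16.5 and 23.4 FPKM after IOP. GCV-treated mice 1, 2 and 5 had 17.7, 24.2 and 18.5 FPKM in control retinas and 23.6, 21.4 and 19.8 FPKM after IOP. Csk was higher after IOP in 3 mice and lower in 3, and the averaged log2 difference was 0.02 (SE 0.11, limma adjusted p = 0.925), with a sign that turned under quantile normalization (-0.02).

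GCV moved none of the 9 kinases past the test. The IOP effect with GCV minus that without lay between -0.30 for Fyn and 0.28 for Fgr on the log2 scale. Each end rested on 1 library, since the value for Fgr was -0.61 without the IOP retina of mouse 5 and that for Fyn was -0.01 without the IOP retina of mouse 4. limma called 0 members for this difference (adjusted p = 0.997 for each) and 0% of all genes, and at an unadjusted p under 0.05 there were 0 members and 1.93% of all genes. For Abl1, whose IOP effects with and without GCV are given above, the difference between them was 0.27 (SE 0.24), which does not show that the effects are alike. Without the IOP retina of mouse 6 this difference was 0.05 (SE 0.13). In IOP-treated retinas, GCV against no GCV gave log2 differences of -0.06 to 0.56, the highest for Src (SE 0.34), with limma adjusted p of 0.819 to 0.982. Both ends moved when 1 library was left out. For Src, leaving out the IOP retina of mouse 6 gave 0.25, and leaving out the one from mouse 4 gave 0.97. The lower end, that of Yes1, was 0.08 with no IOP retina of mouse 6, and Fgr, at 0.14 over all libraries, was -0.75 when the IOP retina of mouse 5 was left out. There 0 members and 0% of all genes were called, and at an unadjusted p under 0.05 there were 0 members and 4.18% of genes. In control retinas the differences were -0.16 to 0.38, the highest for Fyn (SE 0.24), with limma adjusted p of 1. Again 0 members and 0% of genes were called, with 0 members and 1.59% of genes at an unadjusted p under 0.05. GCV and no GCV were given to different mice, so a GCV effect is also a difference between mice.

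Of the other kinases that dasatinib binds, 3 of 13 rose in the averaged comparison and none fell, beside 12.2% of all genes called in this comparison and 6.76% called higher, with a median log2 difference of 0.28 beside 0.01 for all genes. Btk, a kinase of B cells and myeloid cells that SRC family members phosphorylate, rose by 1.16 (SE 0.27, limma adjusted p = 0.0241) from 0.152 ± 0.117 FPKM in 6 control retinas to 1.80 ± 1.39 in 6 IOP-treated ones. Frk, a relative of the SRC family, rose by 0.25 (SE 0.05, limma adjusted p = 0.0178) and stayed low, at 0.141 ± 0.0292 and 0.362 ± 0.139 FPKM. Csf1r, the microglial growth factor receptor, rose by 1.49 (SE 0.36, limma adjusted p = 0.0287) from 4.50 ± 0.723 to 18.4 ± 17.4 FPKM and is also counted among the microglia markers.

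Regulators of SRC family kinases held 4 called genes of 12, all higher, beside the same 12.2% and 6.76% of all genes, with a median of 0.06. Ptpn6, the phosphatase SHP-1 of blood cells, rose by 2.48 (SE 0.43, limma adjusted p = 0.00704) from 1.11 ± 0.517 to 13.1 ± 10.3 FPKM. Ptprc, the leukocyte phosphatase CD45 that frees SRC family kinases from their Csk site, rose by 1.88 (SE 0.39, limma adjusted p = 0.0168) from 0.358 ± 0.176 to 4.92 ± 4.11 FPKM. Dok1, an adaptor that restrains tyrosine kinase signals, rose by 0.95 (SE 0.19, limma adjusted p = 0.0132). Ptpn1 was the fourth, named after its values were seen. Ptprc and Ptpn6 are leukocyte genes, and they were higher in 6 of 6 mice, as was the microglia marker sum. The part of leukocyte or microglial number in these values was not tested.

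In a list of 10 ITAM receptors and effectors and myeloid integrin chains 7 rose and none fell, against 6.76% of all genes called higher, with a median of 1.96. Among the genes called were the integrin chains Itgam (2.37, SE 0.44, limma adjusted p = 0.01055) and Itgb2 (2.85, SE 0.46, limma adjusted p = 0.00495). Tyrobp, the ITAM adaptor of microglia, rose by 3.17 (SE 0.37, limma adjusted p = 0.000955) from 10.4 ± 3.14 to 113.6 ± 72.0 FPKM. Fcer1g, the shared chain of Fc receptors, rose by 3.78 (SE 0.55, limma adjusted p = 0.00275), and Trem2, a lipid receptor paired with Tyrobp, rose by 2.60 (SE 0.35, limma adjusted p = 0.00187). The microglia and neutrophil marker sums were higher in the same IOP-treated retinas, and the part of cell number was not tested.

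Of 12 SRC substrates and adhesion adaptors 2 rose and 1 fell, with a median of 0.24. Pxn (paxillin) rose by 0.35 (SE 0.09, limma adjusted p = 0.0357) and the adaptor Shc1 by 0.55 (SE 0.15, adjusted p = 0.0391), while Arhgap35, a GTPase-activating protein, fell by 0.27 (SE 0.08, adjusted p = 0.0468). Of 14 ABL partners and substrates 2 rose and none fell, with a median of 0.04. They were Abi3 (0.56, SE 0.14, limma adjusted p = 0.0355) and Wasf2 (0.57, SE 0.15, adjusted p = 0.0403), both parts of actin-regulating WAVE complexes, and the adaptor Nck1 was not called (0.25, limma adjusted p = 0.124). The counts of 3 of 12 and 2 of 14 stand beside 12.2% of all genes called in this comparison. Reactive glia markers moved in the same libraries. All 3 of them (Gfap, Vim and Lcn2) rose, with a median log2 difference of 2.66, beside 6.76% of all genes called higher, and their sum was 88.5 to 136 FPKM in the 6 control retinas and 385 to 1322 FPKM in the 6 IOP-treated ones, higher in 6 of 6 mice. The microglia marker sum was higher in the same mice, and the part of these cells in the adaptor and WAVE complex values was not tested.

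Promoter windows of the members are shown for Fgr, which rose, and for Fyn and Yes1, whose ratio was lower in every mouse after IOP, so that the myeloid and the broadly made members can be set side by side. Each is the RefSeq window (GRCm38.p6) from 250 bases before to 50 after a transcription start, on the plus strand at chr4:132973845-132974144, chr10:39369549-39369848 and chr5:32610921-32611220, in lower case with CG dinucleotides in capitals.
Fgr: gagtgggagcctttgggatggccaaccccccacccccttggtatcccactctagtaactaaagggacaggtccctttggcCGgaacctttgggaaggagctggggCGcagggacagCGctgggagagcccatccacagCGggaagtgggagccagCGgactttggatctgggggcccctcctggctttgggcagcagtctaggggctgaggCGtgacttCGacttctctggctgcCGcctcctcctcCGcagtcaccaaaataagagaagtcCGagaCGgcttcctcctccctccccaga
Fyn: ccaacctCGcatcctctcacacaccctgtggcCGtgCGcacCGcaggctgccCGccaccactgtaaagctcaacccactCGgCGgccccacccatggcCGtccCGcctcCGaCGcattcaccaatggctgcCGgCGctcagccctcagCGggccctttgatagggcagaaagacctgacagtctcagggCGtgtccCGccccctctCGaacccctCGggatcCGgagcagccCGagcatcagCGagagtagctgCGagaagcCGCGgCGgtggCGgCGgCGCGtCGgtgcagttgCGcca
Yes1: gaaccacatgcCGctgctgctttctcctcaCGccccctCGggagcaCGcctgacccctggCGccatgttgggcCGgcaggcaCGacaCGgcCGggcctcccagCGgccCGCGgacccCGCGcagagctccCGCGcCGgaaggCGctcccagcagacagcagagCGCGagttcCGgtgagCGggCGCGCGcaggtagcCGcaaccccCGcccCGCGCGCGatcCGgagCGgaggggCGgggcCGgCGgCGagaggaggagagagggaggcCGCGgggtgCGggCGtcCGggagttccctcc

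The Fgr window held 11 CG dinucleotides, the Fyn window 31 and the Yes1 window 42. The median over 32851 windows of that length was 7, and at least as many as in Fgr were found in 41.4% of windows, as in Fyn in 10.6% and as in Yes1 in 3.03%. Of the other members, Src had 47, Abl2 had 31, the windows of Abl1 had 23 and 20, those of Csk 24 and 9, and those of Lck 5 and 7. Windows for 8 of the 9 members were matched by symbol, all but Lyn. The motif GAGGAA, searched on both strands as a core bound by the myeloid factor PU.1, occurred in 28.3% of all windows. It was found once in the Fgr window, once in that of Src and once in 1 of the windows of Lck, 3 times and once in the windows of Csk, and 2 times in 1 window of Abl1. No match was found in the windows of Fyn, Yes1 and Abl2.

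Genes whose levels followed a member most closely were found by the Pearson correlation of log2(FPKM + 1) over the 12 libraries among 12910 genes that averaged 1 FPKM or more. The libraries share mice in pairs and the IOP difference, so these values are descriptions. Fgr was closest to Sla (r = 0.995), an adaptor of blood cells, then to Msn and Msr1. Lyn was closest to Cmtm7 (r = 0.992), then to the chemokine genes Pf4 and Ccl3. Among the abundant members, Fyn was closest to Pak3 (r = 0.983), a neuronal kinase, then to Adam22 and Prkacb, and Src was closest to Tmem132e (r = 0.979), then to 6430706D22Rik and Coch. Abl1 was closest to Trrap (r = 0.966), Abl2 to N4bp2 (r = 0.955), Yes1 to Smek1 (r = 0.947) and Csk to Espn (r = 0.888).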

How the data were processed

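Both retinas of 6 mice were sequenced (TruSeq stranded mRNA libraries, paired ends). Submitters' processing notes name TopHat2, Bowtie2, Cufflinks, Cuffdiff and mm10, without roles or versions, and the methods state that HOMER counted reads on exons of RefSeq genes. The authors deposited 1 table of FPKM values for 24340 genes, with no counts. The unit is not given with the table and was inferred from the steps between low values. The first choice of test needed counts, so limma 3.58.1 (R 4.3.3) was used, as foreseen for normalized values.

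Values were log2-transformed after adding 1 FPKM, 5831 rows at 0 in all 12 libraries were left out, and 4 group means were fitted with a variance trend. p-values were adjusted by Benjamini-Hochberg over 18509 genes. They measure the spread between 3 mice a group. The fit was tested on simulated data. Depth was estimated from single-transcript genes of at least 1500 bases, less 170 bases, with 83.8 to 89.5% of values of 0.5 to 6.5 fragments within 0.25 of a whole number. The labels give the mouse of each retina, so retinas with the same number are a pair, and the mouse was used as a block in an alternative. Over all genes the consensus correlation within mice was 0.0634.

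Named genes were the 9 members, the 3 genes most correlated with each member of at least 1 FPKM on average (the first for Abl1, Abl2, Yes1 and Csk), and the 3 genes with the smallest p of each list in the averaged comparison. The members and lists were chosen with earlier results of these data known. Some genes of the lists are not reported here and were left out of their counts and sums. Alternatives were a filter of 1 FPKM in 3 libraries, a pseudocount of 0.1, other scalings, other thresholds, no variance trend, library weights, only the groups compared, and each library left out. Positions and promoter windows are from RefSeq (GRCm38.p6, the assembly of mm10). Tables and figures were made with matplotlib 3.10.9, numpy 2.4.6 and pandas 2.3.3 in Python 3.11.15.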

Additional observations from a re-analysis of the deposited data

How the results depend on the processing

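The averaged IOP effect called 2 members (Fgr and Lyn). It called 4 at an unadjusted p under 0.05 (Fgr, Fyn, Lyn and Yes1), and 0 to 4 when libraries were left out. None was called without the control retina of mouse 3 or mouse 4, or without both retinas of mouse 6, an alternative chosen after seeing the data, and 4 without the IOP retina of mouse 4 (Fgr, Fyn, Lyn and Src). Without GCV 0 members were called, against 1 (Fgr) with a pseudocount of 0.1, 3 at an unadjusted p, and 0 to 1 with libraries left out. With GCV 0 were called, against 1 (Fgr) with a pseudocount of 0.1, 3 at an unadjusted p, 2 (Fgr and Lyn) with library weights, and 0 to 2 with libraries left out. The cause of these changes was not tested. The interaction and both GCV effects called 0 members under every alternative run.

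With the mouse as a replicate block, the averaged effect called 2 members, again Fgr (adjusted p = 0.0310) and Lyn (0.0218), and the other comparisons 0, so the block changed no call on a member. Over all genes it called 1351 for the averaged effect, against 2258 without the block, and 4131 were called at an adjusted p under 0.1, 5611 at an unadjusted p, and 746 to 4499 with libraries left out. Without GCV the count over all genes was 306, against 464 with a pseudocount of 0.1, 75 with the block, 180 with library weights, 607 at an adjusted p under 0.1 and 20 to 2432 with libraries left out. With GCV it was 334, against 535, 144, 1721, 780 and 51 to 942 in the same order, and 92 with only the groups compared.

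Signs turned for values near 0. Csk averaged was -0.0198 under quantile normalization, -0.0618 to 0.0866 with single libraries left out and -0.0884 without both retinas of mouse 6. Csk without GCV was -0.23 to 0.0194 with single libraries left out. Src with GCV was 0.0040 with library weights, and Abl1 with GCV was -0.0848 to 0.0035 with libraries left out. Fgr averaged was 4.01 and Lyn 2.40 with a pseudocount of 0.1, so the size of the difference depends on it. Lck was dropped by the filter of 1 FPKM in 3 libraries. Values under 1 FPKM rest on few fragments, which limits Lck throughout and Fgr and Lyn in control retinas. Quantile normalization called 1241 genes higher and 1719 lower, against 1252 and 1006.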

Other observations

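Levels of the members were also compared with each other over the 12 libraries, as a description (Pearson correlation of log2(FPKM + 1) across libraries that share mice in pairs). Lyn and Fgr gave 0.943, Src and Fyn 0.839, Abl1 and Abl2 0.802, and Yes1 and Fgr 0.783. Fyn gave -0.693 with Fgr, Src gave -0.667 with Yes1, and Csk gave between -0.501 and 0.089 with the other members compared.

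Matk, which encodes the Csk-related inhibitory kinase of the SRC family and was among the regulators, was named after its values were seen. It averaged 8.48 ± 0.945 FPKM in control and 5.73 ± 4.88 FPKM in IOP retinas without GCV, and 12.4 ± 4.50 against 5.49 ± 2.03 FPKM with GCV (n = 3 each). Its averaged log2 difference of -0.88 (SE 0.31) was not called (limma adjusted p = 0.0827).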
